A study of Mus musculus with 23 samples.

Results

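Mesenteric arteries taken after 14 days of angiotensin II (Ang II) infusion were compared directly with arteries taken after 7 days. Ang II, a peptide of the renin-angiotensin system, raises blood pressure, and mesenteric arteries are the resistance vessels that feed the gut. The members were the 5 libraries labelled 14-day Ang II and the 6 labelled 7-day Ang II, 11 of the 23 libraries of the series, and all genes of the table were examined in them. All mice were male C57BL/6J animals, 10 to 12 weeks old, with no engineered allele in the labels. Infused mice received 1000 ng of Ang II per kg and minute under the skin from an osmotic minipump. The remaining 12 libraries came from sham-operated mice, 6 at each time, and are used here only as the background without infusion. Each library came from its own animal. Vessels were freed of fat and veins, and 500 ng of RNA entered each stranded total RNA library. The hour of dissection is not given in the sources used here.

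Levels are printed on the authors' scale, a read count per gene divided by 1 factor per library, called the normalized signal below. Differences are log2 of the signal plus 0.5, 14 days minus 7 days, with the standard error of a limma fit of the 11 libraries, and a gene was called higher or lower at a Benjamini-Hochberg adjusted p under 0.05. The 11 libraries held 8670036 to 21509283 reads, with means of 18587447 ± 2498606 at 14 days (SD, n = 5) and 13848268 ± 4742944 at 7 days (n = 6; exact two-sided permutation p = 0.089, adjusted p = 0.11 over 6 library measures, where the smallest p possible was 0.0022). The 10 most abundant genes took 25.5 ± 3.66% of reads at 14 days and 34.1 ± 4.61% at 7 days (exact permutation p = 0.0087, adjusted p = 0.052). A transcript listed as AY036118 took 0.367 ± 0.349% and 5.75 ± 5.22% (exact permutation p = 0.028, adjusted p = 0.056). Animal numbers in the table header fell into series by their leading digits. At 14 days 3 infused animals belonged to series 26 and 2 to series 30, and at 7 days 3 belonged to series 27 and 3 to series 28. No series held both infused groups, so series and duration of infusion cannot be told apart within these libraries.

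The label of artery was borne out by smooth muscle and endothelial markers. Acta2, smooth muscle actin, ranged from 2239 to 3410 in the infused libraries, Myh11, smooth muscle myosin, from 1349 to 2651, and Pecam1, an endothelial adhesion molecule, from 441 to 619. Markers of tissue beside the vessel were present too, and those of the pancreas summed higher than those of smooth muscle. The summed level of 25 pancreatic acinar genes ran from 64585 to 121014 at 14 days and from 73391 to 186526 at 7 days. That of 22 contractile smooth muscle genes ran from 10869 to 13561.5 and from 10288 to 14343. None of the 25 acinar genes was called, but 24 were negative, with a median of -0.69. An unadjusted limma p under 0.05 was reached by 21 of them, beside 18.1% of all genes. The part of acinar RNA in the differences below was not tested. The adipocyte marker Adipoq ranged from 57.9 to 272. The T cell marker Cd3e stayed at or below 1.205 and the high endothelial marker Glycam1 at or below 0.429. In bulk RNA, fewer cells of a type and less RNA per cell cannot be told apart.

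The circadian clock is a transcriptional loop found in nearly all mammalian cells, arterial smooth muscle and endothelium included. The activators BMAL1 (gene Arntl), CLOCK and NPAS2 bind E-boxes and switch on the Period, Cryptochrome and Rev-erb genes, whose products repress them in turn. Rev-erb receptors act on Arntl through a ROR element, and the proteins of Dbp, Tef and Hlf act through D-boxes, so the transcripts of the 2 arms peak at different hours of the day. Immediate early genes, the Fos, Jun and Egr families among them, are transcribed within minutes of a stimulus and their messages are short-lived. In vessels under Ang II, matrix proteins and growth factors are the classical products of wall remodelling.

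Because clock genes carried the differences with the smallest p, their promoters are shown first. RefSeq windows on GRCm38.p6, the mm10 assembly, of 250 bases upstream of the annotated start were matched for 19 of 23 clock genes. Letters were searched on both strands for the E-box CACGTG, the D-box TTATGTAA and the letters TNGGTCA, called the ROR pattern here. The last was added after the data were seen. Its N stands for any letter, so a match need not be a ROR element. Since a gene can have several windows, shares are given per gene beside those per window. The E-box stood in 6.02% of all 32851 windows, in 6.86% of all 27025 genes and in 6 of the 19 clock genes (Bhlhe41, Ciart, which the table lists as Gm129, Cry1, Per1, Tef and Tspan4). The D-box stood in 0.819% of windows, in 0.977% of genes and in Per3 alone among the 19. The ROR pattern stood in 9.19% of windows, in 10.5% of genes and in Arntl, Cry2, Nfil3, Per3 and a second Tef window that is not shown. Motif matches are marked in capitals, 5′ to 3′ on the strand of the gene, and no 2 matches overlapped in the windows shown. Arntl, which fell, is at chr7:113207215-113207464 on the plus strand, and Per3, which rose, at chr4:151044666-151044915 on the minus strand. Bhlhe41 and Tef, which also rose, are at chr6:145865421-145865670 (minus) and chr15:81802423-81802672 (plus).
Arntl: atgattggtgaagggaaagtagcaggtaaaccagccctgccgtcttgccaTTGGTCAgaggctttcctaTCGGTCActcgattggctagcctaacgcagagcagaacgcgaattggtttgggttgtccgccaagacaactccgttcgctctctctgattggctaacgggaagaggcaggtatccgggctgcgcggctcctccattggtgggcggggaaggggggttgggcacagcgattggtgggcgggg
Per3: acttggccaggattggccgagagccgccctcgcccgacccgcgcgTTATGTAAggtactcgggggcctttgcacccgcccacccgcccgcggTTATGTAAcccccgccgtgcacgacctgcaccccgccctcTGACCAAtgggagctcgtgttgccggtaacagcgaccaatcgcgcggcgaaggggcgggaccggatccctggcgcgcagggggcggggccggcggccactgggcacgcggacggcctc
Bhlhe41: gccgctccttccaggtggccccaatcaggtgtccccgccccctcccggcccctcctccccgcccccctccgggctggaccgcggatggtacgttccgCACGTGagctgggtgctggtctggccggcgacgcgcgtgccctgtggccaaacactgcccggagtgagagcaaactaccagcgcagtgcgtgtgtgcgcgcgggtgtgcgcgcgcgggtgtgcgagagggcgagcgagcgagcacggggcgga
Tef: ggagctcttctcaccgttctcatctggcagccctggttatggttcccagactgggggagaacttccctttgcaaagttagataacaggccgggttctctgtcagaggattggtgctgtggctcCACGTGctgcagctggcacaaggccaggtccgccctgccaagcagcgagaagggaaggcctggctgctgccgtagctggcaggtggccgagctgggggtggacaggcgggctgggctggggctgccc
The Arntl window held 2 matches of the ROR pattern. The Per3 window held 2 D-boxes and 1 match of that pattern, and the Bhlhe41 and Tef windows 1 E-box each. Motifs and calls did not go together throughout. The windows of Hlf, Npas2 and Nr1d2, which were called, held none of these motifs. Cry1 and Per1, with an E-box, and Cry2 and Nfil3, with the ROR pattern, were not called. A match describes letters in a window and does not show that a factor was bound.

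Among 14321 genes tested, 138 were higher and 62 lower after 14 days than after 7 days of infusion (limma, adjusted p under 0.05), which is 0.964% and 0.433% of the genes tested, 1.4% in all. Clock genes, immediate early genes and a set of growth factors stood among the higher genes, and the positive arm of the clock, metallothionein, the cell cycle inhibitor Cdkn1a and a few matrix proteases among the lower ones. A 2-fold difference or more was reached by 24 of the higher and 24 of the lower genes, and protein-coding genes made up 187 of the 200. An unadjusted p under 0.05 was reached by 2595 genes, 18.1% of those tested. The 5 libraries of 14 days lay wholly above the 6 of 7 days in 312 genes (2.18%) and wholly below in 173 (1.21%). Of the called genes, 126 of the 138 higher and 47 of the 62 lower ones were separated in this way.

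**Figure D1:**
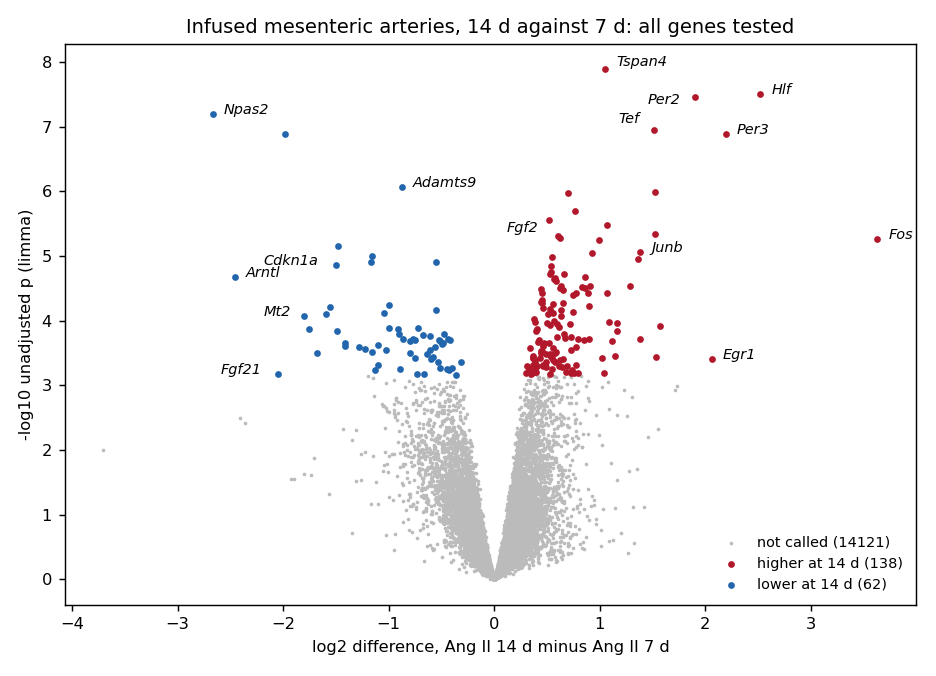
Log2 difference between 14-day and 7-day infused arteries (x axis, 14 days minus 7 days) against -log10 of the unadjusted limma p (y axis) for 14321 genes; red points are the 138 genes called higher, blue points the 62 called lower. Tspan4, Hlf, Per2, Tef and Per3 stand at the top right and Npas2 at the top left, and Fos lies farthest to the right with a log2 difference of 3.63.

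The counts depended on single libraries, with 30 higher and 9 lower genes when 14-day replicate 4 was left out, 81 and 35 without replicate 5, and 59 to 72 higher and 18 to 23 lower without 7-day replicate 1, 2, 3 or 5, while 205 and 105 were called without 14-day replicate 1. With the 3 animals of series 26 alone against 7 days, 17 genes were higher and 5 lower, and with the 2 animals of series 30 alone 290 and 151. All 200 genes kept their direction in all 11 fits that left out 1 library and in both series. These genes were chosen by their difference in the same 11 libraries, so the kept direction is no independent check. In all 11 fits 30 higher and 9 lower genes were called. In a fit of all 23 libraries with series as a term, added after seeing the data, all 200 had the same direction and 1 gene was called, Npas2 (-3.48, limma, adjusted p = 0.025). Series 30 held only 14-day infused libraries, which its term absorbs. Series 26 was linked to series 27 and 28 only through 1 14-day sham library in each. The estimates of that fit thus hang on few sham libraries and are no independent check of direction. Upper-quartile scaling gave 91 higher and 77 lower genes (54.2% higher, against 69% on the authors' scale), and a total without acinar and AY036118 reads gave 375 and 60 (86.2%). The median log2 difference of all genes was 0.02 on the authors' scale, -0.02 with the upper quartile and 0.09 with that total.

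Among the gene lists examined, the clock lists held the most calls. The lists were chosen with earlier results of these data known, so these counts are a description and no independent check. Of 23 tested members of the core and output lists, 11 were called, 9 higher and 2 lower, against 1.4% of all genes, and 9 lay wholly above and 3 wholly below the 7-day libraries. The core list had a median log2 difference of 0.70 and the output list 1.05, beside 0.02 for all genes tested. Of the 11, 8 were called in all 11 fits that left out 1 library, 7 with the series 26 animals alone and 11 with the series 30 animals alone.

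Repressors of the loop were among the genes called higher. Per2, which inhibits BMAL1-driven transcription (chromosome 1, 91415982 to 91459324, mm10), ranged from 16.1 through a median of 19.3 to 24.1 at 7 days and stood at 62.3, 53.1, 103, 89.5 and 81.6 in the 5 libraries of 14 days. All 5 exceeded the highest 7-day value, and the log2 difference was 1.90 ± 0.16 (SE; limma, adjusted p = 1.7e-04). Per3, its paralogue, ranged from 16.7 through 19.1 to 23.9 and stood at 49.1, 80.5, 142, 102 and 106. The groups were separate again, with a log2 difference of 2.19 ± 0.21 (limma, adjusted p = 2.6e-04). Bhlhe41, the E-box repressor DEC2, ranged from 6.65 through 7.72 to 10.4 at 7 days and reached 16.2, 23.8, 20.8, 24.9 and 37.6 at 14 days (1.53 ± 0.18, limma, adjusted p = 0.0015). Nr1d2, a Rev-erb receptor named here after its values were seen, ranged from 63.0 through 66.8 to 73.7 and stood at 65.0, 206, 145, 140 and 194. Its 14-day replicate 1 lay inside the 7-day range and the other 4 above it (1.04 ± 0.23, limma, adjusted p = 0.048). It was called in 1 of the 11 fits that left out 1 library, and not with the series 26 animals alone (adjusted p = 0.27).

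The 2 genes that fell both encode activators of the loop. Npas2, a partner of BMAL1, ranged from 9.13 through a median of 13.2 to 16.2 at 7 days and fell to 3.28, 1.38, 0.753, 1.94 and 1.39 at 14 days. The groups did not overlap, and the log2 difference was -2.67 ± 0.24 (limma, adjusted p = 2.3e-04). Arntl itself lies on chromosome 7, 113207465 to 113314126, and its window with 2 matches of the ROR pattern is printed above. It ranged from 24.1 through 29.9 to 31.7 at 7 days and stood at 17.6, 3.22, 2.46, 5.76 and 2.74 at 14 days. Replicate 1 of 14 days was the highest of its group, yet it too was under the lowest 7-day value, and the difference was -2.45 ± 0.38 (limma, adjusted p = 0.0091) and -2.90 without that library. With the series 26 animals alone Arntl was not called (limma, adjusted p = 0.0994). Clock ranged from 106 through 111 to 129 at 7 days and from 60.8 through 83.5 to 98.5 at 14 days, without overlap, but was not called (-0.46, limma, adjusted p = 0.060).

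Of the 9 output genes tested 4 rose. Hlf and Tef encode transcription factors of the PAR bZIP family, which bind D-boxes. Hlf ranged from 3.62 through 4.51 to 5.63 at 7 days and stood at 15.5, 26.5, 43.6, 31.8 and 32.5 at 14 days, a log2 difference of 2.52 ± 0.22 (limma, adjusted p = 1.7e-04). Tef ranged from 61.8 through 63.4 to 77.9 and stood at 124, 203, 229, 198 and 230 (1.52 ± 0.15, adjusted p = 2.6e-04). In both genes replicate 1 of 14 days was the lowest of its group and still above all 7-day libraries. Tspan4, a cell-surface tetraspanin, had the smallest p of all genes: 23.6 through 26.6 to 30.9 at 7 days and 60.0, 52.7, 53.3, 62.3 and 54.9 at 14 days (1.05 ± 0.08, adjusted p = 1.7e-04). Its window at the gene start held no E-box, and another window, inside the gene, held 1. Wee1, a kinase that holds back mitotic entry, rose by a log2 of 0.66 ± 0.13 (adjusted p = 0.026), called in 5 of the 11 fits that left out 1 library and not in the fit of all 23 libraries (adjusted p = 0.072).

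Other members were not called. Dbp, the third PAR bZIP gene, ranged from 10.7 to 16.98 at 7 days and stood at 12.2, 82.3, 64.1, 36.0 and 90.6 at 14 days (1.73 ± 0.41, limma, adjusted p = 0.060). Nr1d1, the other Rev-erb gene, ranged from 17.5 to 39.1 and stood at 3.13, 40.8, 48.8, 17.6 and 73.6 (-0.29 ± 0.61, adjusted p = 0.83). Nfil3, a repressor at D-boxes, ranged from 7.94 to 14.5 and stood at 12.6, 2.62, 4.25, 6.60 and 2.13 (-1.04 ± 0.35, adjusted p = 0.14). Replicate 1 of 14 days was thus the lowest of its group in Dbp and Nr1d1 and the highest in Nfil3 and Arntl. Per1, Cry1, Cry2, Bhlhe40 and Rora had log2 differences of 0.83, 0.61, 0.40, 0.79 and 0.34 and were not called (adjusted p = 0.14, 0.19, 0.24, 0.064 and 0.17).

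**Figure D2:**
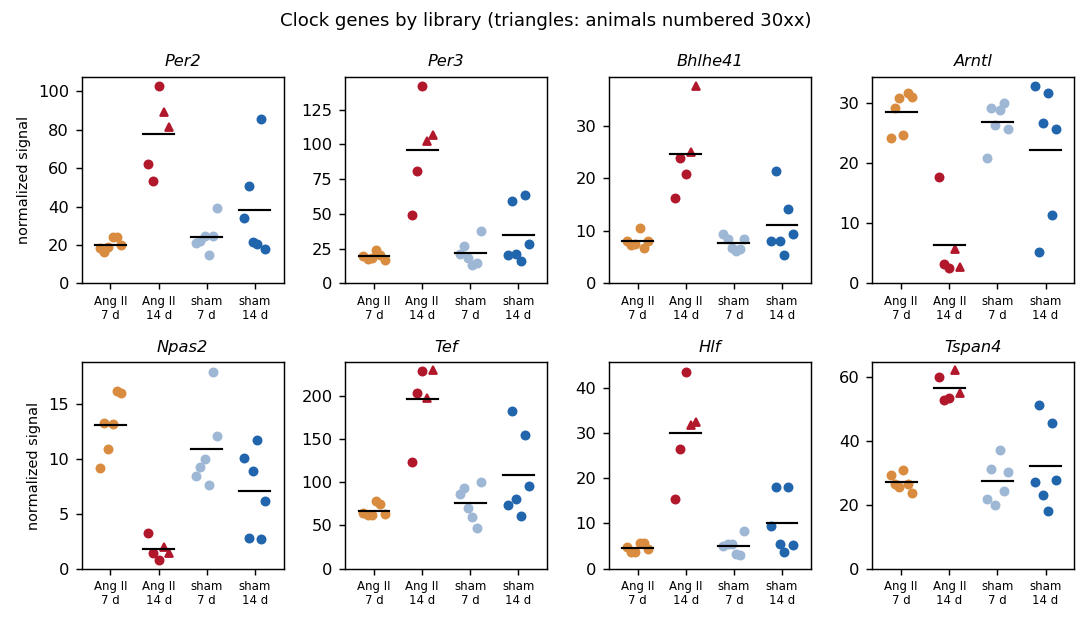
Normalized signal (y axis) of 8 clock genes in each library of the 4 groups (x axis); points are libraries, triangles mark animals of series 30 and black bars are group means. In all 8 genes the 5 infused libraries of 14 days lie apart from the 6 of 7 days, and the 14-day sham libraries spread widely, for Per2 from 17.7 to 85.7.

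Sham arteries showed no called difference between the times, yet their 14-day libraries differed widely in the same genes. Of the 14-day sham animals 4 belonged to series 26, 1 to series 27 and 1 to series 28. At 7 days 4 belonged to series 27 and 2 to series 28, so series and time cannot be fully told apart here either. Reads per library were 14214829 ± 3713039 in 14-day and 8898834 ± 4893066 in 7-day sham (SD). AY036118 took 4.42 ± 3.93% and 15.9 ± 12.5% of them. The part of these differences in the sham comparison was not tested. In the fit of all 23 libraries none of 14896 genes was called between 14-day and 7-day sham by limma or edgeR (1128 at an unadjusted limma p under 0.05, 7.57%, and 1145 by edgeR) and DESeq2 called 1, Cd209g. Per2 stood at 34.3, 50.7, 21.3, 20.4, 85.7 and 17.7 in the 14-day sham libraries, replicates 1 to 6, and ranged from 14.5 through 23.1 to 39.4 at 7 days. Arntl stood at 32.8, 5.24, 26.6, 31.7, 11.4 and 25.7 in the same 6 libraries, against 20.9 through 27.6 to 29.97. Replicates 2 and 5 had the highest Per2 and the lowest Arntl values of the 14-day sham group. The 14-day minus 7-day difference in sham arteries was 0.47 ± 0.30 for Per2, 0.54 ± 0.32 for Per3, 0.75 ± 0.33 for Hlf, -0.49 ± 0.40 for Arntl and -0.72 ± 0.31 for Npas2 (SE), none of them called.

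The difference of the time effects, infused minus sham, was tested in the same fit. It was called for none of 14896 genes by limma or edgeR, with 1396 at an unadjusted limma p under 0.05 (9.37%) and 1835 by edgeR. DESeq2 called 7, Habp2, Npas2, Ip6k1, Cpe, Gfod1, Ceacam1 and Cd209g. For Npas2 the limma difference of time effects was -1.94 ± 0.45 (95% interval -2.88 to -1.01, adjusted p = 0.38) and for Per3 1.65 ± 0.46 (0.69 to 2.61, adjusted p = 0.46). Of the 138 higher genes 124 had a positive sham difference, with a median of 0.17 beside 0.59 in infused arteries, and of the 62 lower genes 52 had a negative one, -0.20 beside -0.83. Over all 14321 genes 6828 had a positive sham difference.

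**Figure D3:**
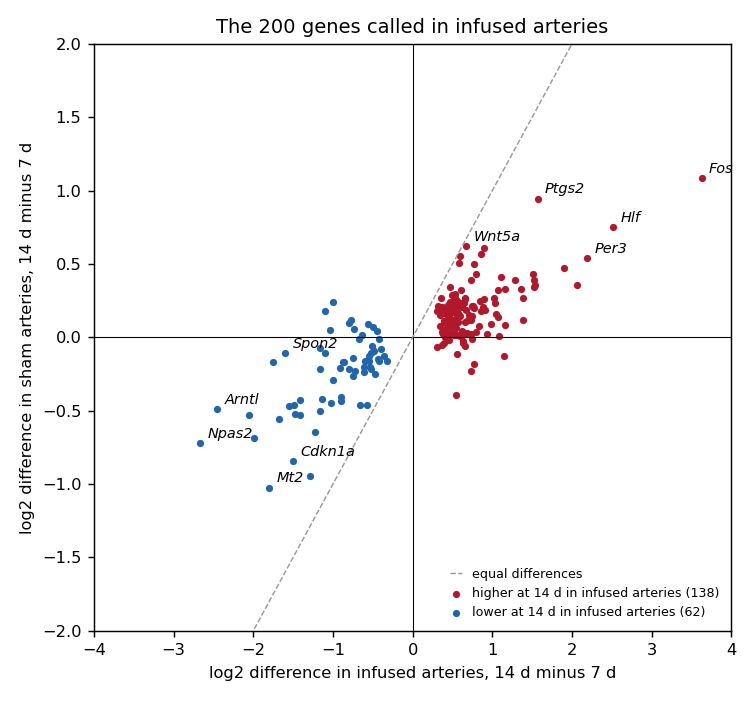
Log2 difference of 14 days minus 7 days in infused arteries (x axis) and in sham arteries (y axis) for the 200 called genes; the dashed line marks equal differences. Of the higher genes 124 of 138 lie above 0 in sham arteries and of the lower genes 52 of 62 below 0, with median sham differences of 0.17 and -0.20.

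Immediate early genes were the second group. Of 20 tested members 6 were higher and none lower, beside 0.964% and 0.433% of all genes, and the list median was 0.69. Of the 6, 4 were called with the series 26 animals alone and 3 with the series 30 animals alone. Fos, a subunit of the AP-1 transcription factor (chromosome 12, 85473890 to 85477273), ranged from 7.76 through 11.6 to 60.9 at 7 days and stood at 405, 151, 259, 137 and 98.7 at 14 days. The groups did not overlap, and the log2 difference was 3.63 ± 0.48 (limma, adjusted p = 0.0044). Its highest 7-day value came from replicate 4, and without that library the difference was 4.04. Junb, another AP-1 subunit, ranged from 21.1 through 34.9 to 49.2 and stood at 134, 79.9, 88.1, 72.2 and 90.8 (1.39 ± 0.20, adjusted p = 0.0061). Ier2 ranged from 8.86 through 10.9 to 17.7 and stood at 45.6, 23.8, 37.1, 24.03 and 26.1 (1.37 ± 0.20, adjusted p = 0.0067). Zfp36, which encodes the mRNA-destabilizing protein tristetraprolin, rose by 1.29 ± 0.20 (adjusted p = 0.011) and Ier3 by 0.73 ± 0.14 (adjusted p = 0.027). Fos, Junb, Ier2 and Zfp36 were called in all 11 fits that left out 1 library, and Ier3 in 6. With the series 30 animals alone Fos and Zfp36 lost their call (limma, adjusted p = 0.0765 and 0.0651), and in the fit of all 23 libraries Junb and Zfp36 did (0.051 and 0.059).

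Egr1, a zinc finger factor of the early response, was less separate. It ranged from 10.2 through 24.1 to 81.8 at 7 days, the last in replicate 4, and stood at 129, 72.1, 187, 77.9 and 91.5 at 14 days. At 14 days 2 libraries lay below the highest 7-day value, and the difference of 2.06 ± 0.43 (limma, adjusted p = 0.036) was called in 2 of the 11 fits that left out 1 library and missed with edgeR (adjusted p = 0.0655). Fosb, Nr4a1 and Egr3 had differences of 1.41, 1.28 and 1.17 and were not called (adjusted p = 0.32, 0.19 and 0.22). In the 14-day sham libraries Fos stood at 55.7, 174, 20.5, 12.2, 187 and 6.498, and in the 7-day sham libraries it ranged from 8.75 through 13.7 to 57.3. The highest values in sham at 14 days were again those of replicates 2 and 5. The sham difference of Fos was 1.08 ± 0.74 and that of Egr1 0.35 ± 0.59, neither called.

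**Figure D4:**
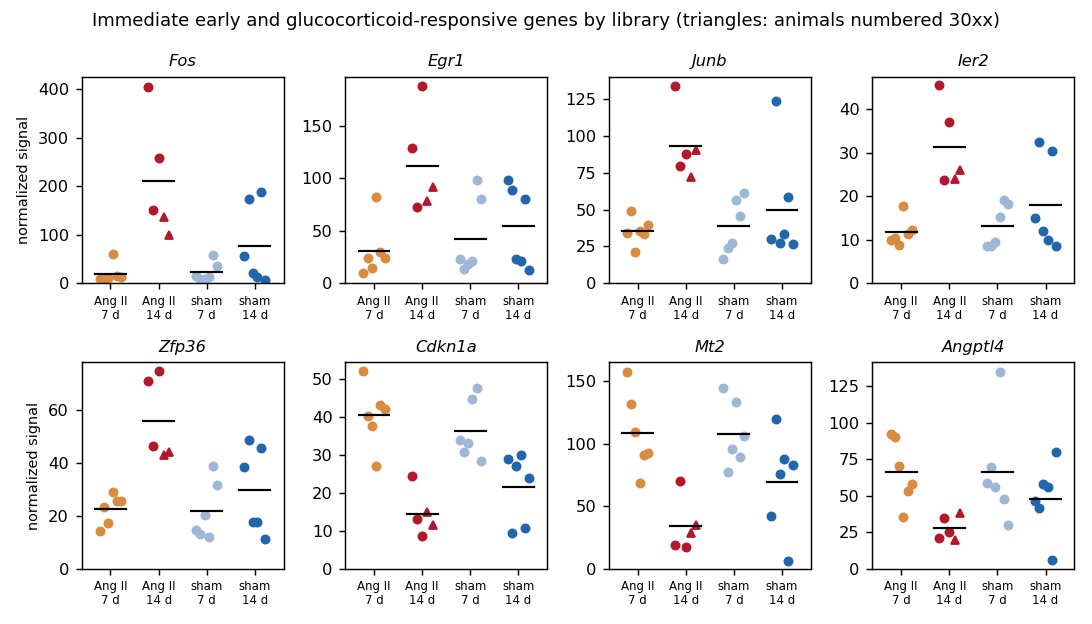
Normalized signal (y axis) of 5 immediate early genes and 3 glucocorticoid-responsive genes in each library of the 4 groups (x axis); points are libraries, triangles mark animals of series 30 and black bars are group means. Fos, Junb, Ier2 and Zfp36 are higher in all 5 infused libraries of 14 days than in any of the 6 of 7 days, and Cdkn1a is lower in all 5.

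Genes known to respond to glucocorticoids, adrenal hormones that many cells sense through a nuclear receptor, had 13 of 15 negative differences. Their median was -0.52, and over all genes tested 6603 of 14321 differences were negative. Of the 15 genes 3 were called lower and 1 higher, beside 0.433% and 0.964% of all genes. None of the 4 was called with the series 26 animals alone. Cdkn1a, the cell cycle inhibitor p21, ranged from 27.1 through 41.1 to 52.2 at 7 days and stood at 24.4, 13.1, 8.68, 14.9 and 11.6 at 14 days, without overlap (-1.50 ± 0.22, limma, adjusted p = 0.0073). Mt2, a metal-binding metallothionein, ranged from 68.9 through 101 to 158 and stood at 18.6, 70.5, 17.6, 28.1 and 34.8 (-1.80 ± 0.32, adjusted p = 0.018), with replicate 2 inside the 7-day range. Angptl4, an inhibitor of lipoprotein lipase, fell by 1.22 on the log2 scale (SE 0.25, adjusted p = 0.032). Dusp1, a phosphatase of MAP kinases that is also an early response gene, rose from a range of 60.1 to 141 to one of 155 to 288 (1.16 ± 0.21, adjusted p = 0.021). Cdkn1a was called in all 11 fits that left out 1 library, Mt2 in 9, Dusp1 in 8 and Angptl4 in 4, and the last 3 lost their call in the fit of all 23 libraries (limma, adjusted p = 0.072, 0.078 and 0.18). Mt1, Pdk4 and Fkbp5 had -1.20, -1.14 and -0.82 and were not called (adjusted p = 0.051, 0.068 and 0.082). Sham arteries had a median of -0.41 for this list, with -0.85 ± 0.27 for Cdkn1a and -1.02 ± 0.50 for Mt2, not called.

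Of 136 matrix genes tested in 7 lists, 1 was higher and 4 were lower, which is 3.68% of them beside 1.4% of all genes. None of 16 fibrillar and associated collagens was higher and 1 was lower, with a median of -0.05. Col1a1, the main chain of type I collagen, stood at 1458, 467, 1439, 874 and 946 at 14 days and ranged from 806 through 897 to 1527 at 7 days. Postn, the matricellular protein periostin, stood at 862, 658, 564, 970 and 799 at 14 days and ranged from 543 through 642 to 736. The groups overlapped in both. The log2 difference was 0.00 for Col1a1 (95% interval -0.59 to 0.59; the sign changed with the scaling) and 0.25 for Postn (-0.08 to 0.58; limma, adjusted p = 0.41).

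Fn1, fibronectin, stood at 1711, 599, 1864, 1964 and 1512 at 14 days and ranged from 620 through 864 to 1302 at 7 days. It was higher than every 7-day library in 4 of 5 libraries but not called (0.71, 95% interval 0.09 to 1.34; limma, adjusted p = 0.22). Without replicate 2 of 14 days, the low one, it was called, with 1.02 and an adjusted p of 0.023. Eln, elastin, had -0.43 (-1.04 to 0.19), Tnc, tenascin C, 0.36 (-0.33 to 1.05) and Ltbp2, a protein of elastic microfibrils, 0.79 (-0.10 to 1.68), none of them called (adjusted p = 0.45, 0.58 and 0.33). Replicate 2 of 14 days had the lowest value of its group in Fn1, Eln, Tnc, Ltbp2 and Col1a1. A p that misses the threshold does not show that these levels were equal.

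The 5 matrix genes that passed were 2 proteases, a proteoglycan, a collagen chain and a matricellular protein. Adamts9, a protease that cleaves versican and aggrecan, ranged from 59.8 through 71.9 to 81.3 at 7 days and stood at 32.2, 34.9, 39.4, 42.9 and 42.7 at 14 days, a log2 difference of -0.87 ± 0.10 (limma, adjusted p = 0.0015) that was called in all 11 fits that left out 1 library. Adamts4, a related aggrecanase, stood at 6.10, 1.203, 0.853, 1.84 and 1.31 at 14 days and ranged from 4.82 through 6.83 to 9.82 (-1.68 ± 0.35, adjusted p = 0.034). Its replicate 1 lay inside the 7-day range, and it was called in 2 of the 11 fits that left out 1 library and not by edgeR (adjusted p = 0.0745). Sdc4, the heparan sulfate proteoglycan syndecan-4, stood at 141, 123, 126, 121 and 130 and ranged from 163 through 191 to 205 (-0.55 ± 0.08, adjusted p = 0.0069). Col5a3, a minor chain of type V collagen, fell by 1.03 on the log2 scale (SE 0.21, adjusted p = 0.032). Cyr61, a matricellular target of mechanical and growth factor signals, rose from a range of 31.4 to 113 to values of 231, 104, 247, 177 and 135 (1.53 ± 0.32, adjusted p = 0.036), with its highest 7-day value in replicate 4. Col5a3 was called in 4 and Cyr61 in 3 of the 11 fits that left out 1 library, and Cyr61 not in the fit of all 23 libraries (adjusted p = 0.086). Ctgf, a relative of Cyr61, had 0.89 and was not called (adjusted p = 0.056). Spon2, a secreted matrix protein outside these lists, fell in all 5 libraries, to 19.3, 9.20, 4.32, 6.23 and 9.46 from a 7-day range of 23.7 to 38.7 (-1.60 ± 0.28, adjusted p = 0.018).

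Fgf2, Ednra, Bmp4, Wnt5a and Nox4 stood among the higher growth factor and vascular signalling genes. Fgf2, a mitogen of smooth muscle and endothelium, ranged from 15.3 through 15.8 to 17.4 at 7 days and stood at 24.9, 23.2, 25.1, 27.8 and 21.8 at 14 days (0.60 ± 0.08, limma, adjusted p = 0.0044). It did not overlap and was called in all 11 fits that left out 1 library. Ednra, the endothelin receptor of smooth muscle, ranged from 12.5 through 13.7 to 15.03 and stood at 18.8, 19.9, 24.1, 20.9 and 18.9 (0.56 ± 0.09, adjusted p = 0.0093). It was also called in all 11, but not with the series 26 animals alone (limma, adjusted p = 0.0987). The sham difference of Ednra was 0.01 ± 0.11 and that of Fgf2 0.14 ± 0.11. Bmp4 and Bmp2, ligands of the BMP receptors, rose by 0.77 ± 0.13 and 0.74 ± 0.16 (adjusted p = 0.011 and 0.046), the platelet-derived growth factor gene Pdgfc by 0.57 ± 0.10 (0.021), the Wnt ligand Wnt5a by 0.67 ± 0.13 (0.027) and the Wnt receptor Fzd1 by 0.62 ± 0.10 (0.011). Of the 11 fits that left out 1 library, Bmp4 and Fzd1 were called in 10, Pdgfc and Wnt5a in 6 and Bmp2 in 2. Bmp2 also lost its call with edgeR (adjusted p = 0.064) and with upper-quartile scaling (0.065), and Wnt5a in the fit of all 23 libraries (0.072). In sham arteries the 14-day minus 7-day difference was 0.50 ± 0.14 for Bmp4 and 0.62 ± 0.19 for Wnt5a, and -0.01 ± 0.16 for Bmp2 and 0.04 ± 0.10 for Fzd1, none called. Egfr, the receptor of epidermal growth factor, was lower, from a range of 107 to 149 to one of 75.4 to 98.8 (-0.52 ± 0.10, adjusted p = 0.027; called in 6 of these 11 fits).

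Ptgs2, the inducible cyclooxygenase, ranged from 3.59 through 5.39 to 9.07 at 7 days and stood at 26.8, 8.59, 21.8, 24.2 and 11.8 at 14 days (1.57 ± 0.29, limma, adjusted p = 0.022). Replicate 2 of 14 days overlapped the 7-day range, and sham arteries had 0.94 ± 0.28 over the same times. Nox4, a NADPH oxidase of the vessel wall that forms hydrogen peroxide, stood at 193, 245, 165, 236 and 208 and ranged from 80.2 through 121 to 160 (0.85 ± 0.17, adjusted p = 0.027). Ptgs2 and Nox4 were each called in 6 of the 11 fits that left out 1 library. Beside 0.964% of all genes higher and 0.433% lower, of 30 vasoactive receptors and enzymes 2 were higher and none lower, of 28 growth factors and receptors 2 and 1, of 28 TGF-beta and BMP genes 2 and none, and of 21 Wnt genes 2 and none. Their medians were 0.18, 0.14, 0.22 and 0.38. The Ang II receptor gene Agtr1a was not called (0.28 ± 0.33, adjusted p = 0.69), and its reads may be divided with the near-identical Agtr1b.

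No gene of the contractile and dividing cell lists was called, beside 1.4% of all genes tested. In lists this small no call is near that share and does not show that levels were equal. None of 22 contractile smooth muscle genes passed, with Acta2 at -0.03 (95% interval -0.36 to 0.29; positive with a total without acinar and AY036118 reads) and Myh11 at 0.22 (-0.15 to 0.60). None of 26 mitosis genes passed, 22 of them negative (6603 of 14321 over all genes) with a median of -0.10. None of 24 DNA replication genes passed, with a median of 0.03. Mki67, the proliferation antigen, stood at 35.2, 23.8, 16.5, 28.2 and 33.5 at 14 days and ranged from 18.8 through 32.4 to 37.3 at 7 days (-0.17 ± 0.21, limma, adjusted p = 0.69). The 14-day values lay within the 7-day range in all but replicate 3.

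**Figure D5:**
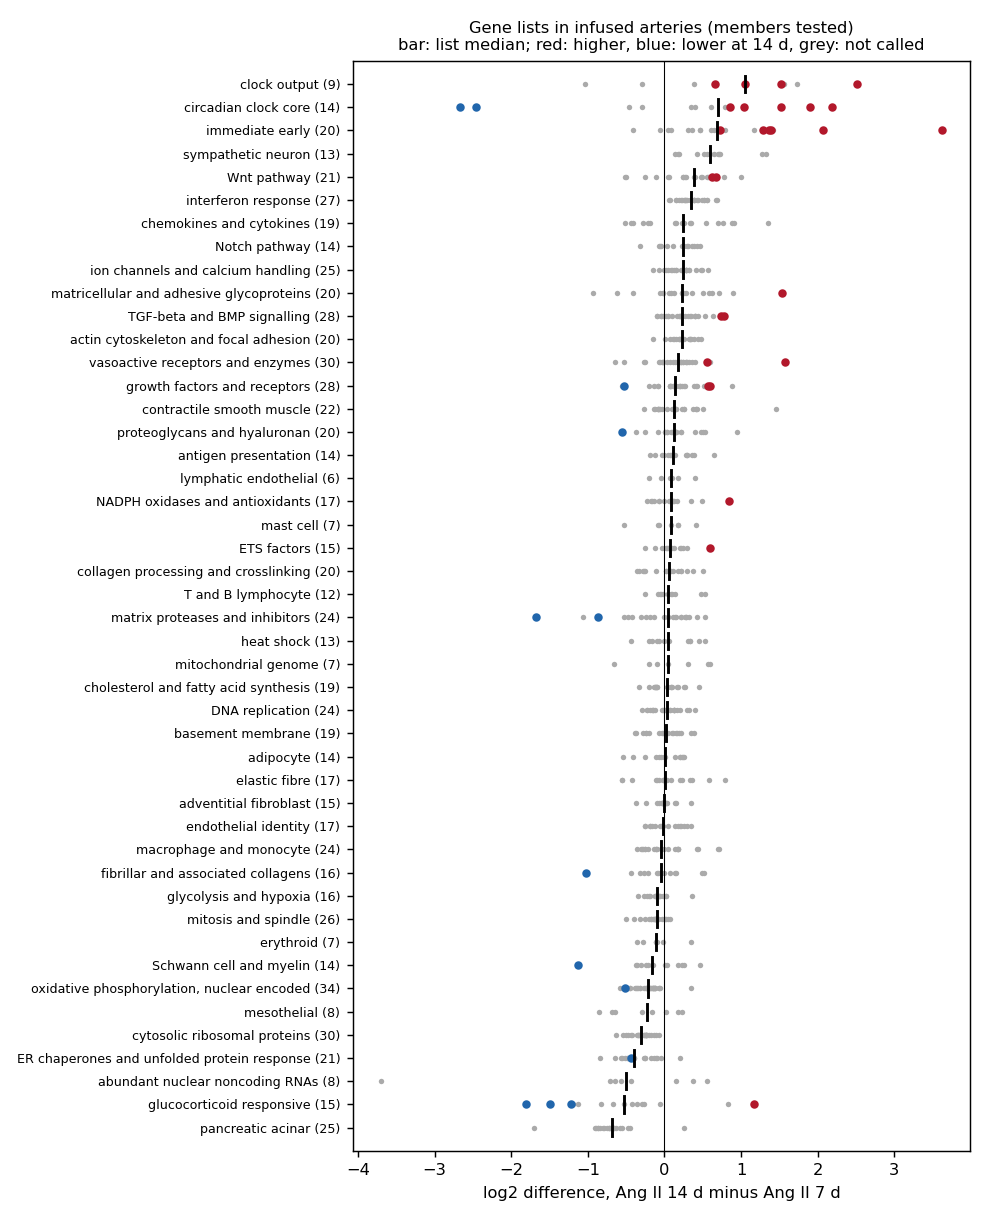
Log2 difference of 14 days minus 7 days in infused arteries (x axis) for the members tested of each gene list (y axis, number of members tested in brackets); red and blue points are members called higher and lower, grey points were not called, and black bars are list medians. The clock output, clock core and immediate early lists have the highest medians, 1.05, 0.70 and 0.69, and the acinar list the lowest, -0.69.

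Other genes with large differences belonged to none of these groups. Cys1, which encodes the ciliary protein cystin, ranged from 6.70 through 8.67 to 9.75 at 7 days and stood at 17.97, 18.5, 45.0, 26.5 and 24.5 at 14 days (1.53 ± 0.20, limma, adjusted p = 0.0044), called in all 11 fits that left out 1 library. Gm10417, an unnamed gene model, ranged from 6.10 to 9.29 and stood at 0.781, 1.55, 2.36, 1.52 and 1.46 (-1.99 ± 0.19, adjusted p = 2.6e-04). Fgf21, a metabolic hormone of the FGF family, fell by 2.05 on the log2 scale (SE 0.46, adjusted p = 0.049), from a 7-day range of 4.52 to 42.0 to one of 1.68 to 4.53 at 14 days. Low genes such as Trim50 (-1.55 ± 0.27) and Ranbp3l (-1.75 ± 0.33), both with 14-day values near or under 1, have folds that the pseudocount of 0.5 understates. Fam150b, which encodes a receptor tyrosine kinase ligand, fell by 1.48 (SE 0.21, adjusted p = 0.0052) and Tmem252 by 1.49 (SE 0.28, adjusted p = 0.024). Dock3, a guanine nucleotide exchange factor, rose by 1.38 ± 0.27 (adjusted p = 0.027), Etv5, an ETS factor, by 0.59 ± 0.11 (0.022), and Gfap, an intermediate filament of glial cells, fell by 1.13 (SE 0.25, adjusted p = 0.046). Of the 11 fits that left out 1 library, Gm10417 and Fam150b were called in all 11, Trim50 and Etv5 in 10, Dock3 in 9, Ranbp3l in 7, Tmem252 in 6, Fgf21 in 3 and Gfap in 2. Ranbp3l was not called by edgeR (adjusted p = 0.0735), and Dock3 and Gfap not in the fit of all 23 libraries (0.059 and 0.071). With the series 26 animals alone Gm10417 kept its call (limma, adjusted p = 0.0107), and Cys1 and Fam150b did not (0.0766 and 0.0813).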

How the data were processed

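The authors deposited 1 table of normalized values, a signal per gene and library for 39179 genes and 23 libraries. The submitters' processing notes name edgeR 3.6.8 with R 3.2.3, the counter HTSeq 0.5.3p3, the aligner STAR 2.3.1, bcl2fastq 1.8.4 and FastQC, and the mm10 build. The sources used here do not give annotation, strand setting or scaling, so values of overlapping genes on opposite strands and of near-identical copies are uncertain. Each value was a whole multiple of its library's smallest value (100% within 0.001 read), so whole reads were recovered for count tests.

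Differences were computed with limma 3.58.1 in R 4.3.3 (trended, robust) on log2(value + 0.5) for the 11 infused libraries. Tested genes had a value of at least 1 in 5 or more libraries, and p-values were adjusted over all genes by the Benjamini-Hochberg method. Sham arteries and the difference of time effects were tested in a fit of all 23 libraries. Alternatives were edgeR 4.0.16 and DESeq2 1.42.0 on recovered reads, 2 other scalings, 2 other pseudocounts, 2 other filters, leaving out single libraries or animal series, and, added after seeing the data, series as a term. The limma fit was tested on simulated data. P-values measure the spread between these animals.

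The genes named were the 15 largest rises and 15 largest falls among called genes with a mean of at least 1, up to 4 called members of each list and direction by smallest p, and 10 genes followed whatever their result. The members and the 50 gene lists were chosen with earlier results of these data known. Coordinates are from GENCODE M21 on GRCm38 and promoter sequences from RefSeq. The values of 1 called clock gene are not reported here.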

Additional observations from a re-analysis of the deposited data

Results flagged for a closer look

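Among the 59 named genes and 6 library measures, 130 groups of 5 or 6 infused libraries were searched for a library whose gap to its nearest neighbour took up most of the group's range, and 15 were found; chance marks about 1 in 20 groups. The values are given without explanation. Replicate 4 of 7 days was the highest of its group in Fos (60.9, next 14.0), Egr1 (81.8, next 29.9), Ier2 (17.7, next 12.2), Bhlhe41 (10.4, next 8.05) and Spon2 (38.7, next 26.3). For Fos, Egr1, Ier2 and Bhlhe41 it was the 7-day library nearest to the 14-day values, and for Spon2 it was the farthest from them. Replicate 5 of 7 days was the highest in Fgf2 (17.4, next 16.04) and Fgf21 (42.0, next 18.4), replicate 2 in Fam150b (5.04, next 3.24) and replicate 6 in Pdgfc (37.6, next 29.1). Replicate 1 of 7 days was the highest in Agtr1a (8.05, next 4.95) and Col1a1 (1527, next 919).

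At 14 days, replicate 1 stood apart in Arntl (17.6, next 5.76) and Adamts4 (6.10, next 1.84), replicate 3 in Dock3 (17.8, next 8.91), and replicate 2 was the lowest in Eln (90.6, next 213). Without replicate 1 the Arntl difference was -2.90 and that of Adamts4 -2.06, both called by limma (adjusted p = 8.0e-06 and 5.0e-04). Over the 11 fits that left out 1 library Arntl was called in all 11 and Adamts4 in 2, with adjusted p up to 0.0999.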

How the results depend on the processing

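No paired analysis was possible because the infused groups share no replicate numbers in the labels. The counts of 138 higher and 62 lower genes moved by over 1.5 times under several settings, and the cause was not tested. Without a filter on low values they were 76 and 27 of 25412 genes, with upper-quartile scaling 91 higher, with a total without acinar and AY036118 reads 375 higher, with DESeq2 445 and 350, and with all 23 libraries in the fit 218 and 122. Without series 26 they were 290 and 151, without series 30 17 and 5, and with series as a term 0 and 1. Leaving out 1 library gave 30 to 205 higher and 9 to 105 lower. Pseudocounts of 0.1 and 1, a filter at 5 and edgeR gave 132 to 145 higher and 53 to 62 lower. For sham arteries the 0 higher genes became 1 with DESeq2, and 0 to 1 with 1 library left out (1 without 7-day sham replicate 2). The difference of time effects gave 7 genes with DESeq2 and 0 in each fit with 1 library left out.

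No called gene named by the rule changed direction in the settings run. Of genes near 0, Acta2 became 0.039 with the total without acinar and AY036118 reads and 0.17 without series 26, and ranged from -0.093 to 0.029 with 1 library left out. Col1a1 became 0.073 with that total, 0.073 with edgeR, 0.059 with DESeq2, 0.051 without series 30 and 0.090 with series as a term, and ranged from -0.15 to 0.26 with 1 library left out. Without series 26, Agtr1a became -0.39 and Mki67 0.035. Depth limits low genes: a library's smallest value is 1 read.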

Other observations

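Some lists leaned to one side with few or no called members. Over all 14321 genes tested 6603 differences were negative and 7718 positive, and 1.4% of the genes were called. All 30 cytosolic ribosomal protein genes had negative differences between 14 and 7 days of infusion, with a median of -0.30 and none called; Rpl32 had the most negative, -0.63 (limma, adjusted p = 0.095). Of 34 nuclear genes of oxidative phosphorylation 33 were negative, with a median of -0.22, and 1 was called, the ATP synthase subunit gene Atp5g1, which fell from a range of 39.6 to 52.4 to values of 39.7, 34.4, 25.6, 30.4 and 33.2 (-0.52 ± 0.11, adjusted p = 0.044, called in 3 of 11 fits that left out 1 library). Of 21 endoplasmic reticulum chaperone and unfolded protein response genes 20 were negative, with a median of -0.39, and the stress transcription factor gene Atf4 was called (-0.43 ± 0.09, adjusted p = 0.027, called in 4 of 11 such fits). The chaperone genes Hspa5 and Sdf2l1 had -0.56 and -0.85 and were not called (adjusted p = 0.29 and 0.15). In sham arteries the medians of these 3 lists were -0.04, -0.02 and 0.04. Of 25 acinar genes 24 were negative, with a median of -0.69, and acinar genes took 10.1 ± 2.17% of reads at 14 days and 14.1 ± 3.63% at 7 days (SD; exact permutation p = 0.063, adjusted p = 0.094). The part of acinar RNA in the other 3 lists was not tested.

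All 27 interferon response genes had positive differences, with a median of 0.35 and none called; Ifit1 and Ifit3 had 0.69 and 0.67 (limma, adjusted p = 0.26 and 0.16), and the median in sham arteries was -0.02. All 13 sympathetic neuron genes were positive too, with a median of 0.59 and none called. Over all genes tested 7718 of 14321 were positive and 1.4% were called. Th, the first enzyme of catecholamine synthesis, stood at 55.0, 0.406, 83.2, 0.277 and 0.450 at 14 days and ranged from 0.229 through 0.787 to 34.97 at 7 days. Replicates 1 and 3 of 14 days were high and the other 3 near 0.

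Of 49 small nucleolar RNA genes 44 had negative differences, with a median of -0.57, and 4 were lower, beside 0.433% of all genes. Gm25776 (chromosome 12, 91573430 to 91573572) stood at 14.2, 19.5, 7.38, 12.3 and 13.8 at 14 days and ranged from 16.6 through 38.6 to 52.6 at 7 days (-1.42 ± 0.28, limma, adjusted p = 0.028). Gm25848 and Gm25291 fell by 1.41 and 1.28 on the log2 scale (adjusted p = 0.030 for each). Gm25776 and Gm25848 were called in 4 and Gm25291 in 5 of the 11 fits that left out 1 library. Near-identical copies may divide their reads.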
